A study of Homo sapiens with 12 samples.

Results

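The genes described here are the ID family (ID1, ID2, ID3 and ID4), the inhibitory SMADs SMAD6 and SMAD7, the ligands BMP4, TGFB1 and TGFB2, and TGFBI. They were selected by name, as the rows of the gene count table with these symbols. All 10 were found among 60591 genes, and all 10 were among the 19108 genes that passed the filter on low counts. Polyadenylated RNA was sequenced from PC9 and H1650, established lung adenocarcinoma lines that both carry an activating in-frame deletion in EGFR. Cells were collected at the start in 0.1% DMSO (T0, 0 h), or after 36 h with the EGFR inhibitor erlotinib at 10 µM or osimertinib at 0.1 µM. Each line has these 3 groups, each group has 2 libraries, and the genotype label of all 12 reads wild-type. No 36 h library without drug was analysed here, so drug and time in culture cannot be told apart in any comparison with T0. The 2 drugs were given at different doses, so a difference between them is a difference between these 2 treatments.

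ID proteins are helix-loop-helix proteins without a DNA-binding region. They pair with E proteins and keep them off DNA, and their genes are classic targets of bone morphogenetic protein (BMP) signalling through SMAD1 and SMAD5. TGF-beta signals mainly through SMAD2 and SMAD3, and SMAD6 and SMAD7 are induced by the same pathways and shut them down. TGFBI encodes a secreted matrix protein named for its induction by TGF-beta.

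The libraries held 17961765 to 26346187 counted reads, with a median of 21581420.5. Levels are given as normalized CPM, counts scaled to library size with the trimmed mean of M values (TMM), and 3 reads correspond to 0.116 to 0.168 normalized CPM. All 5 epithelial markers (EPCAM, CDH1, KRT8, KRT18 and KRT19) exceeded 1 normalized CPM in both lines, with a summed level of 5940 to 9160 in PC9 and 5170 to 8630 in H1650. The 3 lung epithelial markers (NKX2-1, NAPSA and SFTPB) summed to at most 1.85, and NKX2-1 had 0 to 2 reads in every library. The 4 fibroblast markers (COL1A1, COL1A2, DCN and LUM) summed to 18.3 to 44.9 in PC9 and 9.96 to 14.8 in H1650. Nearly all of this was COL1A1, at 18.3 to 44.8 in PC9 and 9.96 to 14.8 in H1650. COL1A2, DCN and LUM had at most 3 reads in any library. Leukocyte markers (PTPRC, CD3E and LYZ) summed to at most 0.296 and endothelial markers (PECAM1, VWF and CDH5) to at most 5.55. The part of such cells in any result was not tested. Unless stated otherwise, changes are log2 fold changes ± SE from edgeR's quasi-likelihood test, with p-values adjusted over all 19108 genes by the Benjamini-Hochberg method and called at an adjusted p below 0.05.

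To show the promoters of ID1, ID3, ID4 and TGFB2, which were called higher in PC9 with both drugs, and of SMAD6, which was 8.13-fold higher in H1650 than in PC9 at T0, the 250 bases before the RefSeq transcription start (GRCh38.p14) are given for ID1 (chr20:31605039-31605288, + strand), ID3 (chr1:23559502-23559751, - strand), ID4 (chr6:19837120-19837369, + strand), TGFB2 (chr1:218345086-218345335, + strand) and SMAD6 (chr15:66701986-66702235, + strand). Each is printed 5′ to 3′ on the strand of its gene. Capitals mark letters that match a SMAD-type motif searched on both strands: the palindrome GTCTAGAC or the box CAGAC, which reads GTCTG on the other strand, or else the GC-rich motif GGCGCC.
ID1: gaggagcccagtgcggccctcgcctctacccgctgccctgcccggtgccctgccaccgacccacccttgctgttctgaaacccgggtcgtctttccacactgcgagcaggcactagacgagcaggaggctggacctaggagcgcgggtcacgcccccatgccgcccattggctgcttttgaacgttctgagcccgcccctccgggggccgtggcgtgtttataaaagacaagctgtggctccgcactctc
ID3: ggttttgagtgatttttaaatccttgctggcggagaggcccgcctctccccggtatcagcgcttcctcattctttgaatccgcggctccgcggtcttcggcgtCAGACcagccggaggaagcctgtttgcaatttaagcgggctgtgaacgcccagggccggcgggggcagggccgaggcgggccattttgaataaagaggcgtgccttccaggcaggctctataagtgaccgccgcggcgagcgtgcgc
ID4: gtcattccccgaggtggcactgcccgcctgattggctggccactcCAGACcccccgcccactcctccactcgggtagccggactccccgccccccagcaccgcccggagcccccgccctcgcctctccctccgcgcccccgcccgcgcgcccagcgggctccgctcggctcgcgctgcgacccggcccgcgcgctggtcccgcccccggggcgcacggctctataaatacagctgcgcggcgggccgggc
TGFB2: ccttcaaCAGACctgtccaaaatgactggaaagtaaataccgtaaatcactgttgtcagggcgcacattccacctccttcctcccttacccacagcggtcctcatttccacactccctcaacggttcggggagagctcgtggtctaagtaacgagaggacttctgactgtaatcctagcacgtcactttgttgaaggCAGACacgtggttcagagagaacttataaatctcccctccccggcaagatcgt
SMAD6: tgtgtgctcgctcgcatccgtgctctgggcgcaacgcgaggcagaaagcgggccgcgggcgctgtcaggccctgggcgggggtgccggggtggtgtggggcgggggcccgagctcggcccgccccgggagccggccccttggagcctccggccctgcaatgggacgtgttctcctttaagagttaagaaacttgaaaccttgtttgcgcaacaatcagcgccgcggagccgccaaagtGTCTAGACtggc

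The SMAD6 window held the palindrome GTCTAGAC, starting at position -12 from the transcription start. Of 35116 RefSeq windows of the same length, 64 (0.182%) held this palindrome. The 10 genes had 14 windows in all, which were searched alike, and SMAD6 was the only one of these genes with the palindrome. Its window was thus singled out from 14, and the 5 printed are a choice among them. ID2, also called higher in PC9 with both drugs and higher in H1650 at T0, is not printed. Its window held none of the 3 SMAD-type motifs. The ID3 and ID4 windows each held 1 CAGAC, at positions -147 and -205, a box found in 38.0% of all windows. The TGFB2 window held 2, at positions -243 and -53. No letters of the 3 motifs were found in the ID1 window, and GGCGCC occurred in 16.4% of all windows and in none of these 5. A match is a description of the sequence only, and binding was not measured here.

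At T0 the lines held different amounts of nearly every one of these mRNAs. H1650 had more ID1, ID2, ID3, ID4, SMAD6, SMAD7 and TGFBI, and PC9 had more BMP4, TGFB1 and TGFB2. Of the 10 genes, 7 were called higher and 3 lower in H1650, with a median log2 difference of 1.52. Across all tested genes 35.8% were called higher and 33.8% lower, with a median of 0.039. BMP4 was 93.0-fold higher in PC9 (log2 fold change -6.54 ± 0.15, adjusted p = 6.57e-24), and ID2 was 60.9-fold higher in H1650 (log2 fold change 5.93 ± 0.26, adjusted p = 8.53e-18). SMAD6, ID3 and ID1 were 8.13-, 8.02- and 5.75-fold higher in H1650, with adjusted p-values of 1.09e-17, 1.84e-21 and 1.41e-20. The smallest differences were those of TGFB1 (log2 fold change -0.36 ± 0.098, adjusted p = 0.00225), TGFB2 (log2 fold change -0.65 ± 0.094, adjusted p = 5.93e-07) and SMAD7 (log2 fold change 0.56 ± 0.12, adjusted p = 0.000162). The TGFB1 difference was no longer called without H1650 T0 replicate 2 (log2 -0.24, adjusted p = 0.0709; range of adjusted p over all alternatives 1.45e-06 to 0.0709). Each line stands for itself, so these values describe PC9 and H1650 and no wider class of tumour.

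**Figure D1:**
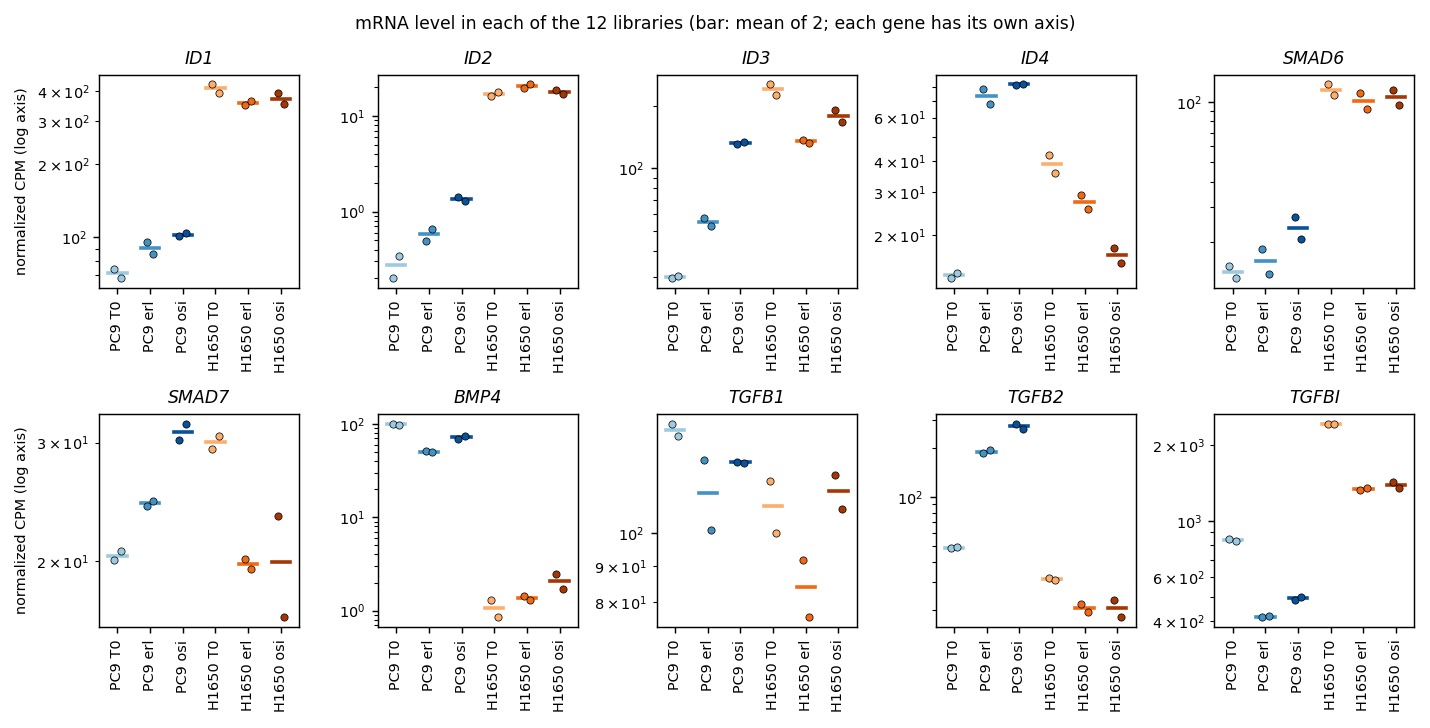
Normalized CPM (log axis, a separate range for each gene) of the 10 genes in each of the 12 libraries. Points are libraries, bars are means of 2, blue is PC9 and orange H1650, each in the order T0, erlotinib (erl) and osimertinib (osi). The blue points climb for ID1, ID3, ID4 and TGFB2, whereas the orange points for ID3, ID4 and TGFB2 lie lower with drug than at T0. The points for TGFBI lie lower with drug than at T0 in both colours.

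After 36 h of drug, more of the 10 genes were called higher than lower in PC9, and more lower than higher in H1650. In PC9 with erlotinib 5 were higher (ID1, ID2, ID3, ID4 and TGFB2), 3 were lower (BMP4, TGFB1 and TGFBI) and 2 were not called. The background among all tested genes was 32.7% higher and 29.1% lower, and the median log2 fold change was 0.30 for the 10 genes and 0.074 for all genes. In PC9 with osimertinib SMAD6 and SMAD7 joined the genes that were higher, which made 7, while BMP4 and TGFBI were lower, against a background of 32.7% and 28.7%. The medians there were 0.68 and 0.064. In H1650 with erlotinib none of the 10 was higher and 7 were lower (ID1, ID3, ID4, SMAD7, TGFB1, TGFB2 and TGFBI), where the background was 18.0% higher and 18.5% lower and the medians were -0.45 and 0.0051. In H1650 with osimertinib ID3, ID4, SMAD7, TGFB2 and TGFBI were lower and BMP4 was higher, against 17.9% lower and 17.8% higher among all genes, with medians of -0.28 and 0. Both drug groups of a line are compared with the same 2 T0 libraries.

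**Figure D2:**
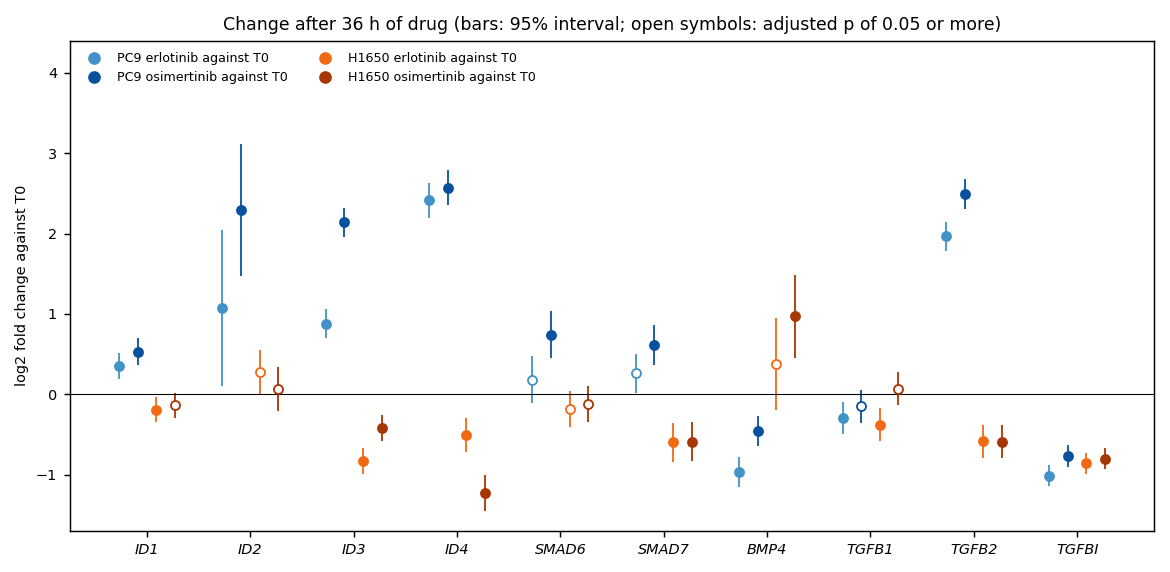
Log2 fold change against T0 of each gene in the 4 combinations of line and drug, with 95% intervals. Filled symbols passed an adjusted p of 0.05, and ID4 in PC9 (2.41 and 2.57) and in H1650 (-0.51 and -1.23) shows the widest split between the lines.

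ID4 showed the largest rise of the 10 genes in PC9 and the largest fall in H1650 with osimertinib. The ID4 level in the PC9 libraries was 13.4 and 14.1 normalized CPM at T0, 78.0 and 68.4 with erlotinib and 81.7 and 81.9 with osimertinib. In H1650 it was 42.2 and 35.8 normalized CPM at T0, 29.1 and 25.5 with erlotinib and 17.8 and 15.4 with osimertinib. No drug library overlapped the T0 libraries of its line, and the order of the lines turned over: H1650 was above PC9 at T0 and below it with either drug. The rise in PC9 was 5.32-fold with erlotinib (log2 fold change 2.41 ± 0.11, adjusted p = 3.92e-17) and 5.95-fold with osimertinib (log2 fold change 2.57 ± 0.11, adjusted p = 8.96e-18). The fall in H1650 was 1.43-fold with erlotinib (log2 fold change -0.51 ± 0.10, adjusted p = 0.000218) and 2.35-fold with osimertinib (log2 fold change -1.23 ± 0.11, adjusted p = 5.2e-10). ID4 lies at chr6:19837386-19840684 (GENCODE 29, GRCh38, + strand) and is known for tissue-restricted expression.

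ID3, like ID1 a classic BMP target, followed the same opposite pattern with a graded response to the 2 treatments in PC9. Its PC9 libraries measured 29.5 and 30.3 normalized CPM at T0, 57.3 and 52.7 with erlotinib and 130.3 and 134 with osimertinib. The H1650 libraries measured 254 and 226 normalized CPM at T0, 137 and 133 with erlotinib and 192 and 167 with osimertinib. In PC9 the 3 groups did not overlap, and each osimertinib library was above each erlotinib library. In H1650 both drug groups lay below T0 and the erlotinib libraries were lowest. ID3 rose 1.84-fold with erlotinib (log2 fold change 0.88 ± 0.089, adjusted p = 1.44e-09) and 4.41-fold with osimertinib (log2 fold change 2.14 ± 0.088, adjusted p = 5.04e-18) in PC9. In H1650 it fell 1.78-fold (log2 fold change -0.83 ± 0.079, adjusted p = 2.68e-09) and 1.34-fold (log2 fold change -0.42 ± 0.078, adjusted p = 9.92e-05). The gene spans chr1:23557918-23559794 (- strand).

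ID1, the most abundant ID transcript at T0 in both lines, changed less. The PC9 libraries held 74.4 and 68.2 normalized CPM at T0, 96.2 and 85.6 with erlotinib and 102 and 104 with osimertinib, so both drug groups were above T0. The H1650 libraries held 426 and 393 normalized CPM at T0, 351 and 365 with erlotinib and 392 and 352 with osimertinib. In H1650 the erlotinib libraries were below both T0 libraries, and so were both osimertinib libraries, 1 of them only just. The PC9 increases were 1.27-fold (log2 fold change 0.35 ± 0.081, adjusted p = 0.000445) and 1.44-fold (log2 fold change 0.53 ± 0.081, adjusted p = 1.97e-06). In H1650 the erlotinib value passed the threshold narrowly (log2 fold change -0.20 ± 0.075, adjusted p = 0.0427) and the osimertinib value did not (log2 fold change -0.14, 95% interval -0.29 to 0.015, adjusted p = 0.159, and adjusted p = 0.0484 with a replicate block, a fit that adds the replicate number within each line as a term). The H1650 erlotinib call was lost without H1650 T0 replicate 1 (log2 -0.14, adjusted p = 0.295), without H1650 erlotinib replicate 1 (log2 -0.16, adjusted p = 0.217) or replicate 2 (log2 -0.23, adjusted p = 0.0612), and without PC9 T0 replicate 1 or 2 (adjusted p = 0.0506 and 0.0507). The direction was the same in each, and the adjusted p over all alternatives was 0.0058 to 0.295.

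ID2 was close to the limit of detection in PC9. Its PC9 libraries held 4 and 7 reads at T0, 11 and 17 with erlotinib and 31 and 23 with osimertinib. The increase with osimertinib was 4.90-fold (log2 fold change 2.29 ± 0.40, adjusted p = 1.32e-05). The erlotinib value was just past the threshold (log2 fold change 1.07 ± 0.47, adjusted p = 0.0468) and was lost with DESeq2 (adjusted p = 0.0778), without the filter on low counts (adjusted p = 0.141), without PC9 T0 replicate 1 (log2 0.74, adjusted p = 0.281), without PC9 erlotinib replicate 2 (log2 0.83, adjusted p = 0.252) and without any 1 of the 2 PC9 osimertinib or 6 H1650 libraries, in a range of adjusted p of 0.0292 to 0.281 (adjusted p = 0.0589 with a replicate block). H1650 expressed ID2 at 16.1 and 18.0 normalized CPM at T0, 19.7 and 21.5 with erlotinib and 18.7 and 17.1 with osimertinib, and neither drug value was called there (log2 fold change 0.27, 95% interval -0.00065 to 0.54, and 0.069, 95% interval -0.20 to 0.34). ID2 shares 38 exon bases with its antisense gene ID2-AS1 (0 to 27 reads in the 12 libraries). Whether the reads were counted by strand is not given in the sources used here, so reads of the 2 genes cannot be told apart in that stretch.

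On a per-length scale the make-up of the family differed between lines and treatments. At T0, H1650 held 332 normalized CPM per kb of ID1, 161 of ID3, 10.1 of ID4 and 7.70 of ID2. The same order held in PC9 at T0, with 57.8, 20.0, 3.55 and 0.124 normalized CPM per kb. With osimertinib, ID3 in PC9 (88.2 per kb) stood beside ID1 (83.4 per kb). In H1650 with osimertinib ID4 (4.29 per kb) was below ID2 (8.09 per kb). These levels use the gene lengths in the deposited table, which for ID3 (1496 bases) and ID4 (3873 bases) differ from the GENCODE 29 exon unions (1797 and 2344 bases).

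Among the inhibitory SMADs, SMAD6, which mainly restrains BMP receptors, separated the lines far more than the drugs. PC9 libraries measured 15.1 and 13.2 normalized CPM at T0, 18.4 and 13.9 with erlotinib and 26.5 and 20.6 with osimertinib. H1650 libraries measured 123 and 108 normalized CPM at T0, 110.3 and 92.4 with erlotinib and 115 and 96.8 with osimertinib. The H1650 groups overlapped one another, and in PC9 only the osimertinib libraries were both above every T0 and erlotinib library. In PC9 SMAD6 rose 1.67-fold with osimertinib (log2 fold change 0.74 ± 0.14, adjusted p = 4.57e-05), while the erlotinib value was 0.18 (95% interval -0.12 to 0.48, adjusted p = 0.286). That erlotinib value passed the threshold without PC9 erlotinib replicate 2 (log2 0.37, adjusted p = 0.0384) and changed sign without replicate 1 (log2 -0.033, adjusted p = 0.898), in a range of adjusted p of 0.0384 to 0.898. The H1650 values were -0.19 (95% interval -0.41 to 0.041) and -0.12 (95% interval -0.35 to 0.10), neither of them called, though the erlotinib value passed with a replicate block (adjusted p = 0.00746). SMAD6 lies at chr15:66702228-66782848 (+ strand).

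SMAD7, which blocks both TGF-beta and BMP receptors, started from closer levels and then diverged. The PC9 libraries measured 20.1 and 20.7 normalized CPM at T0, 24.2 and 24.6 with erlotinib and 30.2 and 32.0 with osimertinib. In H1650 they measured 29.4 and 30.6 normalized CPM at T0, 20.2 and 19.5 with erlotinib and 23.3 and 16.5 with osimertinib. Every drug library was above T0 in PC9 and below T0 in H1650, although the 2 H1650 osimertinib libraries stood apart from each other. SMAD7 rose 1.52-fold with osimertinib in PC9 (log2 fold change 0.61 ± 0.12, adjusted p = 7.3e-05). With erlotinib the PC9 value was 0.26 (adjusted p = 0.0651, and adjusted p = 0.0406 with a replicate block), and it passed the threshold with upper quartile scaling (log2 0.35, adjusted p = 0.0143), in a range of adjusted p over all alternatives of 0.0143 to 0.242. In H1650 SMAD7 fell 1.51-fold with erlotinib (log2 fold change -0.60 ± 0.12, adjusted p = 0.000209) and 1.51-fold with osimertinib (log2 fold change -0.59 ± 0.12, adjusted p = 0.000215). Per kb, SMAD7 exceeded SMAD6 in PC9 at T0 (4.05 against 1.66 normalized CPM per kb), and SMAD6 exceeded SMAD7 in H1650 (13.5 against 5.96).

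Of the ligands, TGFB2 had the largest response. In PC9 its libraries measured 48.3 and 49.3 normalized CPM at T0, 186 and 196 with erlotinib and 284 and 264 with osimertinib. H1650 measured 31.5 and 30.6 normalized CPM at T0, 22.0 and 19.5 with erlotinib and 23.1 and 18.1 with osimertinib. The PC9 groups were fully separated in the order T0, erlotinib, osimertinib, and in H1650 both drug groups were below T0. TGFB2 rose 3.91-fold (log2 fold change 1.97 ± 0.089, adjusted p = 4.11e-17) and 5.61-fold (log2 fold change 2.49 ± 0.090, adjusted p = 2.47e-19) in PC9, and fell with erlotinib (log2 fold change -0.58 ± 0.10, adjusted p = 3.36e-05) and 1.51-fold with osimertinib (log2 fold change -0.59 ± 0.10, adjusted p = 2.55e-05) in H1650. TGFB2 shares 1371 exon bases on the same strand with TGFB2-OT1, a non-coding gene listed at 0 reads in all 12 libraries.

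TGFB1, the most widely expressed TGF-beta ligand, changed little. PC9 libraries held 142 and 137 normalized CPM at T0, 126 and 101 with erlotinib and 126 and 125 with osimertinib. H1650 libraries held 118 and 99.9 normalized CPM at T0, 91.6 and 76.3 with erlotinib and 121 and 108 with osimertinib. It fell 1.23-fold with erlotinib in PC9 (log2 fold change -0.30 ± 0.098, adjusted p = 0.0103) and 1.30-fold with erlotinib in H1650 (log2 fold change -0.38 ± 0.10, adjusted p = 0.00342). These calls depended on single libraries. In PC9 the call was lost without T0 replicate 1 (log2 -0.28, adjusted p = 0.0571) or erlotinib replicate 2 (log2 -0.14, adjusted p = 0.26), in a range of adjusted p of 3.61e-05 to 0.26. In H1650 it was lost without T0 replicate 1 (log2 -0.26, adjusted p = 0.0882) or erlotinib replicate 2 (log2 -0.26, adjusted p = 0.0872), in a range of 8.93e-06 to 0.0882. With osimertinib the values were -0.15 in PC9 (95% interval -0.35 to 0.050) and 0.068 in H1650 (95% interval -0.13 to 0.27), neither of them called. The PC9 value passed the threshold with a replicate block (adjusted p = 0.036), without the filter on low counts (adjusted p = 0.0109) and with 1 fit per line (adjusted p = 0.0367). Per kb, TGFB2 went from 8.07 normalized CPM at T0 to 45.3 with osimertinib in PC9, where TGFB1 stood at 38.7. TGFB1 shares 215 exon bases with the opposite-strand gene HNRNPUL1 (5750 to 14025 reads a library), and reads there cannot be told apart if strand was not used.

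BMP4, a ligand that activates the ID genes in many tissues, was a PC9 transcript. The PC9 libraries measured 101 and 96.8 normalized CPM at T0, 51.2 and 50.0 with erlotinib and 69.6 and 74.1 with osimertinib. The H1650 libraries held 28 and 22 reads at T0, 28 and 28 with erlotinib and 52 and 38 with osimertinib. In PC9, where the ID genes rose, BMP4 fell 1.96-fold with erlotinib (log2 fold change -0.97 ± 0.092, adjusted p = 4.25e-10) and 1.38-fold with osimertinib (log2 fold change -0.46 ± 0.091, adjusted p = 7.43e-05). In H1650 it rose 1.96-fold with osimertinib from its low level (log2 fold change 0.97 ± 0.25, adjusted p = 0.00294) and the erlotinib value was not called (log2 0.37, 95% interval -0.20 to 0.95). The H1650 osimertinib call was lost without H1650 T0 replicate 2 (log2 0.67, adjusted p = 0.104) or osimertinib replicate 1 (log2 0.68, adjusted p = 0.109), in a range of adjusted p of 0.00122 to 0.109.

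TGFBI fell in both lines with both drugs. The PC9 libraries measured 847 and 834 normalized CPM at T0, 414 and 418 with erlotinib and 486 and 499 with osimertinib, and the H1650 libraries 2435 and 2428 normalized CPM at T0, 1326 and 1351 with erlotinib and 1428 and 1355 with osimertinib. All drug libraries lay below all T0 libraries of their line. The falls were 2.02-fold (log2 fold change -1.01 ± 0.065, adjusted p = 1.02e-13) and 1.71-fold (log2 fold change -0.77 ± 0.065, adjusted p = 2.94e-11) in PC9, and 1.82-fold (log2 fold change -0.86 ± 0.064, adjusted p = 2.43e-11) and 1.75-fold (log2 fold change -0.81 ± 0.064, adjusted p = 9.87e-11) in H1650. TGFBI lies at chr5:136028895-136063818 (+ strand) and was the most abundant of the 10 transcripts per kb in PC9 at T0 (109 normalized CPM per kb) and close to ID1 in H1650 (315 against 332).

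The difference in response between the lines was tested directly, as the H1650 log2 fold change minus that of PC9. With erlotinib 6 of the 10 genes differed, 5 of them lower in H1650 (ID1, ID3, ID4, SMAD7 and TGFB2) and 1 higher (BMP4). Across all genes 19.8% were called lower and 21.1% higher. With osimertinib ID2 and SMAD6 were added to the lower genes, which made 7, and BMP4 was again higher, against 20.5% lower and 21.5% higher. The median difference of the 10 genes was -0.67 with erlotinib and -1.03 with osimertinib, and that of all genes -0.032 and -0.026. ID4 had the largest difference with either drug, -2.93 ± 0.15 with erlotinib (adjusted p = 2.76e-15) and -3.80 ± 0.15 with osimertinib (adjusted p = 2.03e-17). TGFB2 followed at -2.55 ± 0.13 and -3.08 ± 0.13, and ID3 at -1.71 ± 0.12 and -2.56 ± 0.12. For TGFBI the difference was 0.15 with erlotinib (95% interval -0.033 to 0.34) and -0.034 with osimertinib (95% interval -0.22 to 0.15). TGFB1 was not called with either drug (adjusted p = 0.701 and 0.22). The SMAD6 difference with erlotinib (-0.37, adjusted p = 0.112, and adjusted p = 0.00551 with a replicate block) passed the threshold without PC9 erlotinib replicate 2 (log2 -0.56, adjusted p = 0.0134) or H1650 erlotinib replicate 1 (log2 -0.48, adjusted p = 0.0414), in a range of adjusted p of 0.00551 to 0.576. The TGFB1 difference with osimertinib (0.22, adjusted p = 0.0419 with a replicate block) passed it without H1650 T0 replicate 1 (log2 0.36, adjusted p = 0.0483), in a range of 0.0419 to 0.651.

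**Figure D3:**
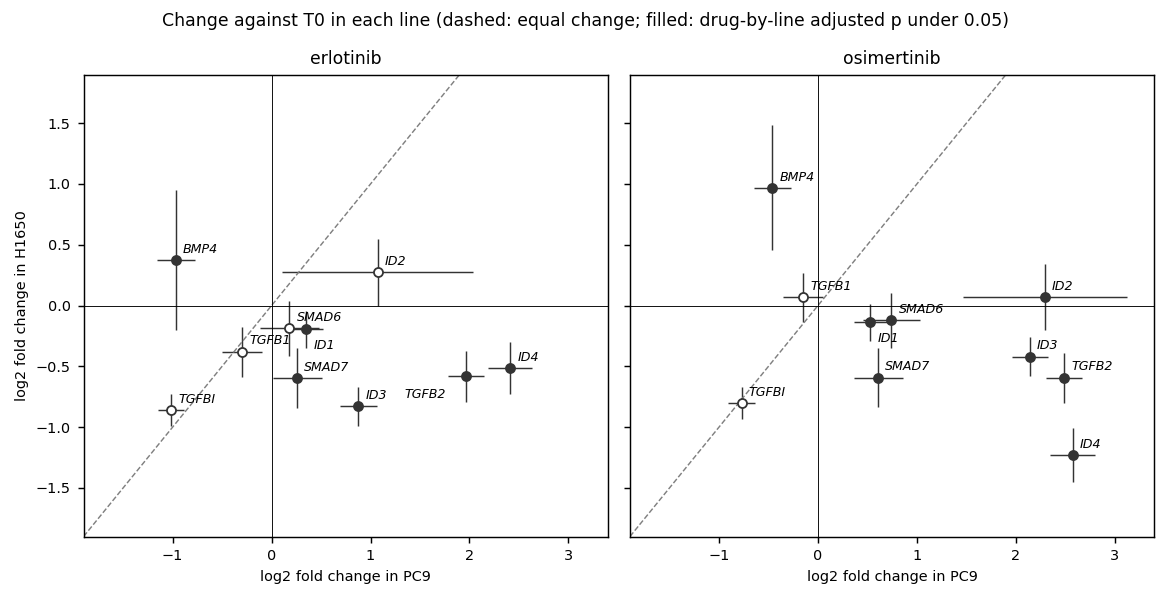
Log2 fold change against T0 in PC9 (horizontal) and H1650 (vertical) for each drug, with 95% intervals and a dashed line of equal change. Filled symbols have a drug-by-line adjusted p under 0.05. ID4, ID3 and TGFB2 lie right of zero and below it with both drugs, whereas TGFBI lies near the dashed line.

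Set side by side in PC9, osimertinib at 0.1 µM gave higher levels than erlotinib at 10 µM for 7 of the 10 genes and lower levels for none. The background was 10.1% higher and 6.41% lower, and the medians were 0.43 for the 10 genes and 0.0036 for all genes. ID3 differed most, at 2.40-fold (log2 fold change 1.26 ± 0.083, adjusted p = 4.38e-12), while ID4 did not pass (log2 0.16, 95% interval -0.032 to 0.35), nor did ID1 (log2 0.18, adjusted p = 0.138, and adjusted p = 0.0383 with a replicate block). TGFB2 (log2 fold change 0.52 ± 0.082, adjusted p = 3.27e-05), BMP4 (log2 fold change 0.50 ± 0.093, adjusted p = 0.000238) and TGFBI (log2 fold change 0.24 ± 0.065, adjusted p = 0.00871) were also higher. The remaining calls were ID2 (log2 fold change 1.22 ± 0.32, adjusted p = 0.0081), SMAD6 (log2 fold change 0.56 ± 0.14, adjusted p = 0.00409) and SMAD7 (log2 fold change 0.35 ± 0.12, adjusted p = 0.038). Several rested on single libraries. Without PC9 osimertinib replicate 1 the calls of ID2, SMAD6 and SMAD7 were lost (adjusted p = 0.0794, 0.175 and 0.0867), and 4 genes were left. Without PC9 erlotinib replicate 1 those of ID2, SMAD7 and TGFBI were lost (adjusted p = 0.0825, 0.135 and 0.068). Without PC9 erlotinib replicate 2 SMAD6 and SMAD7 were lost (adjusted p = 0.11 and 0.101), and without PC9 osimertinib replicate 2 SMAD7 was lost (adjusted p = 0.2). ID2 was also lost with 1 fit per line (adjusted p = 0.0808). SMAD7 was also lost with DESeq2 (adjusted p = 0.0527), and its range of adjusted p was 0.013 to 0.2.

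In H1650 the 2 treatments differed in 3 of the 10 genes. ID3 (log2 fold change 0.41 ± 0.080, adjusted p = 0.000844) and TGFB1 (log2 fold change 0.45 ± 0.10, adjusted p = 0.00357) were higher with osimertinib, and ID4 was 1.64-fold lower (log2 fold change -0.72 ± 0.11, adjusted p = 5.35e-05). Among all genes 5.02% were higher and 3.73% lower. ID3 was lost without H1650 osimertinib replicate 1 (log2 0.31, adjusted p = 0.0614). TGFB1 was lost without that library (log2 0.37, adjusted p = 0.0718) or without H1650 erlotinib replicate 2 (log2 0.33, adjusted p = 0.0961). The ID4 call held in every alternative run (adjusted p 3.44e-08 to 0.00383). Whether the drug-to-drug differences themselves differed between the lines was not tested.

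**Figure D4:**
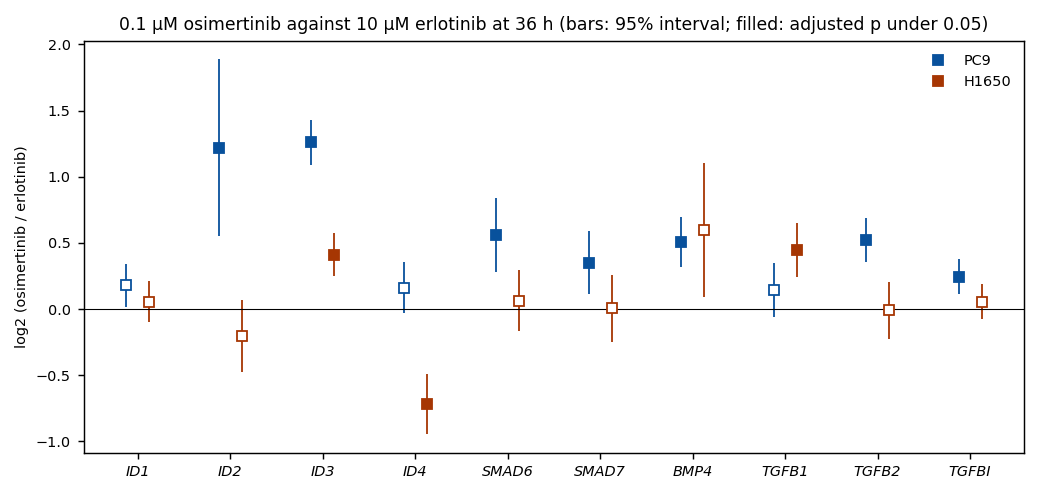
Log2 ratio of osimertinib (0.1 µM) to erlotinib (10 µM) at 36 h for each gene in PC9 and H1650, with 95% intervals. Filled symbols passed an adjusted p of 0.05, ID3 in PC9 stands highest at 1.26 with ID2 at 1.22, and ID4 in H1650 lies at -0.72.

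A list of 75 other genes of the TGF-beta and BMP pathways, grouped by role, was followed in the same way, and 71 of them passed the filter. Where 2 values of a gene are given together, they are log2 fold changes ± SE with erlotinib and with osimertinib, both called unless stated otherwise. Counts and medians of a line leave out genes with at most 3 reads in every library of that line, which passed the filter through the other line (5 genes in PC9 and 3 in H1650). The shares of all tested genes given beside them still include such genes, so the list and the background are not over like sets. None of the genes left out was called against T0 in the line concerned. Genes with slightly more reads stayed in, so some of the calls counted below rest on few reads. CHRD, called higher in PC9 with erlotinib, had 0 to 1 reads a library at T0 and 4 to 6 with erlotinib. BMP5, called higher in PC9 with both drugs, had at most 16 reads there. SNAI2, called lower in H1650 with both drugs, had at most 19 reads there. Of 66 genes in PC9, 27 were higher and 15 lower with erlotinib, beside 32.7% and 29.1% of all tested genes, and 35 were higher and 14 lower with osimertinib, beside 32.7% and 28.7%. Of 68 genes in H1650, 16 were higher and 23 lower with erlotinib, beside 18.0% and 18.5% of all tested genes, and 14 were higher and 18 lower with osimertinib, beside 17.8% and 17.9%. The list median was 0.22 with erlotinib and 0.40 with osimertinib in PC9. In H1650 it was -0.044 and 0.0066.

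The 7 known TGF-beta target genes of the list were mostly called higher in PC9 and lower in H1650. Genes outside these 7 that are also described here as induced by the pathways went both ways in PC9. TGFBI and PMEPA1 fell there with both drugs, as they did in H1650. BAMBI rose in PC9 with both drugs, and SMAD6 and SMAD7 were called higher there with osimertinib. In PC9 they counted 5 higher and 1 lower with erlotinib, where 32.7% and 29.1% of all tested genes were higher and lower, and 6 higher and 0 lower with osimertinib, where the shares were 32.7% and 28.7%. Their median log2 fold changes were 0.77 and 1.74. In H1650, where CDKN2B had no reads, the other 6 counted 0 higher and 5 lower with erlotinib, beside 18.0% and 18.5% of all tested genes, and 0 higher and 4 lower with osimertinib, beside 17.8% and 17.9%. Their medians were -1.49 and -1.28. Of the 6 with reads in both lines, 5 differed between the lines with erlotinib and 6 with osimertinib, each with the lower change in H1650. For this difference, 19.8% of all tested genes were called lower and 21.1% higher with erlotinib, and 20.5% and 21.5% with osimertinib. CCN2, a matricellular protein, measured 28.3 ± 3.07 normalized CPM (SD, n = 2) in PC9 at T0, 61.1 ± 6.03 with erlotinib and 135 ± 2.81 with osimertinib. In H1650 it went from 262 ± 1.08 to 42.1 ± 3.12 and 47.0 ± 1.42. FN1, which encodes fibronectin, changed by 0.58 ± 0.078 and 1.87 ± 0.079 in PC9 and -0.98 ± 0.077 and -0.77 ± 0.076 in H1650. SNAI2, a repressor of epithelial genes, held 269 to 958 reads in PC9 and rose there by 1.42 ± 0.13 and 1.74 ± 0.13, and in H1650 it held 7 to 19 reads at T0 and 1 to 3 with drug.

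THBS1, encoding thrombospondin, fell in H1650 (-2.00 ± 0.075 and -1.78 ± 0.074) and, in PC9, changed by -0.70 ± 0.072 with erlotinib and -0.028 ± 0.072 with osimertinib, the last of which was not called. JUNB, an immediate-early transcription factor, rose in PC9 by 0.77 ± 0.088 and 1.45 ± 0.088 and fell in H1650 with erlotinib (-0.68 ± 0.084, adjusted p = 2.36e-07), while its H1650 osimertinib value of -0.18 was not called. CDKN2B, a cyclin-dependent kinase inhibitor, rose in PC9 from 8.80 ± 0.115 to 128 ± 2.43 and 203 ± 8.03 normalized CPM and had 0 reads in all 6 H1650 libraries, where no fold can be given. COL1A1, named after its values were seen because it completes the list and is also a fibroblast marker, rose in PC9 with osimertinib (1.05 ± 0.12, adjusted p = 1.9e-08) and was not called in the other 3 comparisons with T0.

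**Figure D5:**
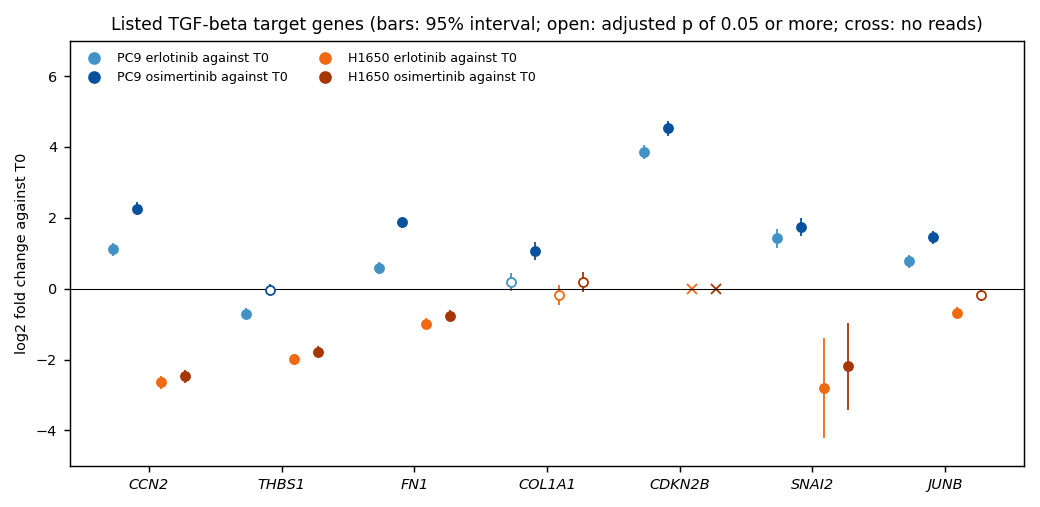
Log2 fold change against T0 of the 7 listed TGF-beta target genes in the 4 combinations of line and drug, with 95% intervals. Crosses mark CDKN2B in H1650, which had no reads. The PC9 symbols lie above zero except those of THBS1, and the H1650 symbols lie below zero except those of CDKN2B and COL1A1 with osimertinib.

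Ligand, antagonist and receptor genes did not share 1 direction. INHBB, an activin subunit, rose in PC9 by 1.73 ± 0.084 and 1.37 ± 0.084. It also rose in H1650 with erlotinib (0.70 ± 0.20, adjusted p = 0.006), from a low level, and was not called higher there with osimertinib. INHBA, the other activin subunit measured, rose in PC9 with osimertinib (0.99 ± 0.082) and was not called there with erlotinib (0.15, adjusted p = 0.124). In H1650 INHBA fell (-0.79 ± 0.22 and -1.07 ± 0.23). BMP5 had 0 reads in both PC9 T0 libraries, 3 and 10 in the erlotinib libraries and 8 and 16 in the osimertinib libraries, against 630 to 808 in H1650. NOG, the BMP antagonist noggin, had the largest fall of the list in PC9, from 34.4 ± 2.28 normalized CPM at T0 to 1.61 ± 0.0676 with erlotinib and 2.73 ± 0.585 with osimertinib (-4.42 ± 0.17 and -3.67 ± 0.17). NOG also fell in H1650 (-0.64 ± 0.14 and -0.38 ± 0.14). NBL1, another secreted BMP antagonist, fell in PC9 (-1.81 ± 0.10 and -1.81 ± 0.10) and was not called in H1650. FSTL3, an activin-binding follistatin relative, fell in H1650 (-1.07 ± 0.10 and -1.31 ± 0.10) and rose in PC9 with osimertinib (0.67 ± 0.092). LTBP2, of the family of latent TGF-beta binding proteins, fell in PC9 (-2.10 ± 0.089 and -1.16 ± 0.086) and in H1650 (-0.48 ± 0.097 and -0.54 ± 0.097).

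The receptor genes with large changes moved apart. BMPR2, the type II BMP receptor, rose in PC9 by 1.06 ± 0.086 and 1.49 ± 0.086 and fell slightly in H1650 with erlotinib (-0.26 ± 0.082). BAMBI, a decoy receptor induced by the pathway, rose in PC9 by 2.09 ± 0.14 and 2.47 ± 0.14 and fell with erlotinib in H1650 (-0.28 ± 0.11, adjusted p = 0.0456). ENG, the co-receptor endoglin, went the other way, falling in PC9 (-1.99 ± 0.087 and -1.97 ± 0.089) and rising in H1650 (0.23 ± 0.077 and 0.40 ± 0.077). SMAD1, a BMP-pathway SMAD, rose in both lines, by 1.14 ± 0.11 and 1.01 ± 0.12 in PC9 and 0.25 ± 0.096 and 0.49 ± 0.095 in H1650. Of the transcripts that encode repressors of SMAD signalling, SKIL rose in PC9 (1.26 ± 0.074 and 1.62 ± 0.074) and fell in H1650 (-0.53 ± 0.077 and -0.30 ± 0.076). TGIF1 rose in PC9 (1.22 ± 0.072 and 1.42 ± 0.073) and, with osimertinib, in H1650 (0.53 ± 0.073). PMEPA1, a TGF-beta-induced gene whose product restrains SMAD2 and SMAD3, fell in PC9 (-1.53 ± 0.068 and -1.13 ± 0.068) and in H1650 (-2.07 ± 0.072 and -1.58 ± 0.070). Like TGFBI, NOG and LTBP2, it fell in all 4 comparisons with T0, and SMAD1 and GATA2 rose in all 4.

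The genes with the most similar patterns over the 6 groups were sought for the 5 genes ID1, ID2, ID3, SMAD6 and SMAD7 among 10294 genes, as the smallest root mean square difference of centred group means of log2(normalized CPM + 1). For ID1 these were EEF1A2 (0.11), TXNDC15 (0.117) and ZNF677 (0.126), and for ID2 they were GALC (0.173), CCL28 (0.213) and MCC (0.224). ID3 was nearest to C15orf48 (0.153), TUBA1A (0.244) and STC1 (0.28). SMAD6 was nearest to ZNF462 (0.143), CDH1 (0.144) and GFOD1 (0.145), and SMAD7 to DNAJB4 (0.0652), MYO1C (0.0913) and TRNAU1AP (0.0994). The group means of SMAD7 span 0.637 on this scale, against 2.51 to 4.08 for the other 4 genes.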

How the data were processed

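Polyadenylated RNA of PC9 and H1650 cells was sequenced in 12 libraries, 2 in each of 6 groups of line and treatment. The authors deposited raw read counts per gene from the DolphinNext pipeline, with gene lengths, and the labels name GRCh38. The aligner, annotation and use of strand are not given in the sources used here. The authors tested counts with DESeq2. The replicates are described as biological; replicate pairs differed by more than sampling noise (chi-square per degree of freedom 3.659 to 6.501), so none was a repeat deposit.

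Counts were filtered with filterByExpr, scaled by TMM and fitted over all 12 libraries with 1 mean per group in edgeR 4.0.16 (quasi-likelihood test; R 4.3.3), with Benjamini-Hochberg adjustment over 19108 genes and calls at 0.05. The fit had 6 residual degrees of freedom and a biological coefficient of variation of 6.56%. Each SE was derived from the test, as the size of the log2 change fitted without a prior count over the square root of the F statistic. Intervals are 95%, are centred on the reported log2 fold change and are for changes in group means, not for single libraries. They are based on the spread between libraries, pooled in part over genes (20.7 prior degrees of freedom). Drug-by-line differences, drug-to-drug and line-to-line differences came from the same fit. Alternatives were DESeq2 1.42.0, other scalings, other filters (none, or 10 counts in every library), 1 fit per line, a replicate block and leaving out each library. The code was tested on simulated counts. A gene of the pathway list and a marker gene are not reported here and were left out of the counts of their lists. The 10 genes and the lists were chosen with earlier results of these data known. From the pathway list, genes were named where they were called in 1 direction with both drugs in a line at a log2 change of 1 or more and a mean of at least 10 normalized CPM, or called in opposite directions in the lines with the same drug at that mean. Counts and medians of the pathway list within a line leave out genes with at most 3 reads in each of its libraries. The shares of all tested genes do not leave such genes out. Genes nearest in pattern had that mean too, and the pseudocount was 1. Promoter windows came from RefSeq (GRCh38.p14), where all 10 genes had an entry. Positions are from GENCODE 29 (GRCh38), an annotation that differs from the deposited gene lengths for some genes.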

Additional observations from a re-analysis of the deposited data

Results flagged for a closer look

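A response that differed between PC9 and H1650 in the direct test was set apart for 14 pairs of gene and drug. Values are the H1650 log2 fold change minus the PC9 log2 fold change, from edgeR's quasi-likelihood test. With erlotinib they were ID1 -0.55 (adjusted p = 0.000191), ID3 -1.71 (adjusted p = 2.11e-12), ID4 -2.93 (adjusted p = 2.76e-15), SMAD7 -0.86 (adjusted p = 0.000151), BMP4 1.34 (adjusted p = 0.000515) and TGFB2 -2.55 (adjusted p = 4.44e-15). With osimertinib they were ID1 -0.67 (adjusted p = 1.31e-05), ID2 -2.22 (adjusted p = 9.06e-05), ID3 -2.56 (adjusted p = 3.45e-16), ID4 -3.80 (adjusted p = 2.03e-17), SMAD6 -0.86 (adjusted p = 0.00025), SMAD7 -1.20 (adjusted p = 1.1e-06), BMP4 1.43 (adjusted p = 6.43e-05) and TGFB2 -3.08 (adjusted p = 9.09e-17). BMP4 in H1650 and ID2 in PC9 rest on few reads, 22 to 52 and 4 to 31 a library. The lines also differed in these transcripts at T0, and no library cultured for 36 h without drug was analysed here, so the part of time in culture was not tested.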

How the results depend on the processing

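For the log2 values of the 10 genes, 1590 under the alternatives kept their direction and their side of the threshold. Of the rest, 45 lost their call, 16 gained a call and 20 changed sign, the last all in differences that were not called. Counts of calls are not part of this tally. Leaving out 1 library at a time gave 4 to 7 calls among the 10 genes for osimertinib against erlotinib in PC9 (7 with all libraries; 4 without PC9 erlotinib replicate 1 or PC9 osimertinib replicate 1) and 1 to 3 in H1650 (3; 1 without H1650 osimertinib replicate 1). Over all genes these comparisons gave 2108 to 3234 calls in PC9 (3163; fewest without PC9 osimertinib replicate 2) and 782 to 1818 in H1650 (1672). Among uncalled values that changed sign, leaving out 1 library gave -0.033 to 0.37 for SMAD6 in PC9 with erlotinib, -0.0060 to 0.15 for ID2 and -0.051 to 0.20 for TGFB1 in H1650 with osimertinib, -0.24 to 0.089 for TGFB1 in the erlotinib and -0.056 to 0.019 for TGFBI in the osimertinib difference between lines, and -0.010 to 0.32 for TGFB1 in PC9 between drugs. Between drugs in H1650 the ranges were -0.018 to 0.13 for ID1, -0.061 to 0.19 for SMAD6, -0.26 to 0.24 for SMAD7 and -0.19 to 0.16 for TGFB2. With no filter the osimertinib line difference of TGFBI became 0.042 and the H1650 drug difference of TGFB2 0.0042, and with 1 fit per line that of SMAD7 was -0.0013. The ID2 call in PC9 with erlotinib was also lost with RLE scaling (adjusted p = 0.0524) and 1 fit per line (0.136), ID1 in H1650 with erlotinib with the filter of 10 counts (0.0582), TGFB1 in PC9 with erlotinib with upper quartile scaling (0.0821), and SMAD7 between drugs in PC9 with upper quartile scaling (0.0516) or no filter (0.0523). TGFB1 in PC9 with osimertinib was gained with no filter (0.0109) or 1 fit per line (0.0367), its osimertinib line difference with no filter (0.0434), and SMAD7 in PC9 with erlotinib with the filter of 10 counts (0.0301). The cause was not tested.

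A replicate block, fitted within each line, gave 2857 calls over all genes (1672 without it) and 18 on the pathway list (7 without it) for osimertinib against erlotinib in H1650, and turned SMAD7 there to -0.0035. It lost the ID2 call in PC9 with erlotinib (adjusted p = 0.0589) and added SMAD7 in PC9 with erlotinib (adjusted p = 0.0406), TGFB1 in PC9 with osimertinib (0.036), SMAD6 in H1650 with erlotinib (0.00746), ID1 in H1650 with osimertinib (0.0484), the line differences of SMAD6 with erlotinib (0.00551) and TGFB1 with osimertinib (0.0419), and ID1 between drugs in PC9 (0.0383). The labels state no shared batch for a replicate number. Deviations of same-numbered libraries from their group means correlated at 0.194 to 0.396 within a line and 0.00857 to 0.486 across lines. With 2 libraries a group, precision is limited most for ID2 in PC9 and BMP4 in H1650.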

Other observations

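The shares of all tested genes called higher and lower were 32.7% and 29.1% in PC9 with erlotinib, 32.7% and 28.7% in PC9 with osimertinib, 18.0% and 18.5% in H1650 with erlotinib, and 17.8% and 17.9% in H1650 with osimertinib. Beside these, the 3 E proteins that ID proteins bind (TCF3, TCF4 and TCF12) counted 0 higher and 1 lower in PC9 with erlotinib and 1 higher and 2 lower with osimertinib. In H1650 the counts were 0 higher and 1 lower with erlotinib and 0 higher and 2 lower with osimertinib. Their median log2 fold change was -0.12 with erlotinib and -0.31 with osimertinib in PC9. In H1650 it was -0.20 and -0.22. The 6 receptor-regulated and common SMADs counted 2 higher and 0 lower with either drug in PC9, close to the share of all genes that were higher there. In H1650 they counted 1 higher and 0 lower with erlotinib and 1 higher and 1 lower with osimertinib. Of the 7 known BMP target genes outside the ID family, MSX1, MSX2 and DLX5, named after their values were seen, had at most 2 reads in any PC9 library. The other 4 counted 3 higher and 0 lower with either drug in PC9, and the 7 counted 3 higher and 1 lower with either drug in H1650. Among them GATA2, a transcription factor, rose in both lines, by 1.69 ± 0.098 and 1.99 ± 0.098 on the log2 scale in PC9 and 0.31 ± 0.10 and 0.60 ± 0.098 in H1650 with erlotinib and osimertinib. ATOH8, 1 of the 3 called higher in PC9, had 1 to 2 reads a library there at T0 and 20 to 28 with drug. HEY1, not called in PC9, had 3 to 11 reads a library there.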
